A study of Mus musculus with 12 samples.

Results

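Glycolysis and the pentose phosphate pathway were followed through 30 genes, among 45321 mouse genes to which the deposited transcripts could be assigned. The 30 were taken as the known transporters, enzymes and regulators of both pathways, by function rather than by a threshold on measured values. All 30 had enough counts to be tested, among 14398 genes that did. They fall into 5 roles: glucose entry (4 genes), upper glycolysis (8), lower glycolysis (5), the fate of pyruvate and lactate (6), and the pentose phosphate pathway (7).

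The RNA came from total CD4+ T cells of C57BL/6 mouse spleen, purified untouched, which means that the other cells were removed and the CD4+ cells were left unlabelled. The 4 groups had 3 libraries each. ethanol_US cells received the ethanol vehicle for 1 h and no stimulus; CsA_US cells received 1 µM cyclosporin A (CsA) for 1 h and no stimulus. ethanol_PI and CsA_PI cells received the same pre-treatments and then 10 nM phorbol 12-myristate 13-acetate (PMA) with 1 µM ionomycin for 2 h. For unstimulated cells no time beyond the 1 h of pre-treatment is listed. An effect of stimulation therefore cannot be told apart from one of 2 h more in culture. CsA_PI cells may also have had longer with CsA than CsA_US cells. The phorbol ester switches on protein kinase C and the ionophore lets calcium into the cell, which replaces signals that otherwise start at the T cell receptor. CsA forms a complex with cyclophilin that blocks calcineurin, a calcium-dependent phosphatase upstream of the NFAT transcription factors.

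Glycolysis breaks glucose down to pyruvate in the cytosol. Glucose enters through facilitative transporters and is trapped by hexokinase as glucose 6-phosphate, which phosphofructokinase commits to glycolysis after isomerization. Pyruvate is either reduced to lactate, which leaves the cell through monocarboxylate transporters, or oxidized in mitochondria by pyruvate dehydrogenase. The pentose phosphate pathway branches off at glucose 6-phosphate, making NADPH in its oxidative arm and ribose 5-phosphate for nucleotides in its non-oxidative arm. Activated T cells are known for taking up more glucose and making more lactate than resting ones.

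Libraries held 10523816 to 18468044 estimated counts, and members averaged 2.53 to 1530 CPM (counts relative to the library total, with TMM scaling between libraries, which assumes that most genes do not change). The summed CPM of 7 T cell markers was 2740 to 5970 over the libraries, with Cd4 at 198 to 448 CPM and Cd3e at 176 to 314 CPM. With stimulation in vehicle Cd5, Trac and Lck rose and Cd3d, Cd3g and Cd4 fell, by the test described below with all 12 libraries. Log2 fold changes ran from 2.03 for Cd5 to -0.96 for Cd3g, so the sum does not follow T cell content alone. The 7 myeloid and dendritic markers summed to 165 to 185 CPM in the replicate 2 library of every group and to 26.1 to 46.4 CPM in the others. The 6 B cell markers summed to 3800 to 4510 CPM in replicate 2 and 2260 to 3710 CPM in the others, the 5 CD8 and NK markers to 63.7 to 126 CPM in all, and the 6 erythroid and platelet markers to 17.5 to 101 CPM. Among defining markers, Itgam was at 0 in CsA_PI 1 and Cd8a at 0 in ethanol_PI 3. Other markers of the same lists were present there, such as Lyz2 at 30.1 CPM in CsA_PI 1 and Cd8b1 at 15.2 CPM in ethanol_PI 3. The labels do not say that replicates were separate animals, so a p-value here reflects library-to-library spread that could be technical. Molecular identifiers were not part of the reads. In bulk RNA, fewer cells expressing a gene and less RNA per cell cannot be told apart.

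The library labelled CsA_PI 2 went against its label. Il2, the cytokine that stimulated T cells make, was at 2.59 CPM in it, beside 25.4 and 23.3 CPM in CsA_PI 1 and 3 and 1.16 to 2.42 CPM in ethanol_US. Of all 66 pairs of libraries, CsA_PI 2 and ethanol_US 2 were the closest, with a chi-square of 4.84 per gene over 10264 genes (median 0.98, both above the level of sampling noise). The next closest pair had 19.15, and CsA_PI 2 had 265.6 and 230.8 with CsA_PI 1 and 3. Some genes still differed between CsA_PI 2 and ethanol_US 2 beyond sampling noise, so they were not counted as 1 library, and the label was kept. Over the 30 members, the level in CsA_PI 2 was 0.796 to 1.16 times that in ethanol_US 2. Results are given for all 12 libraries and, where CsA_PI 2 bears on them, for the other 11.

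**Figure D1:**
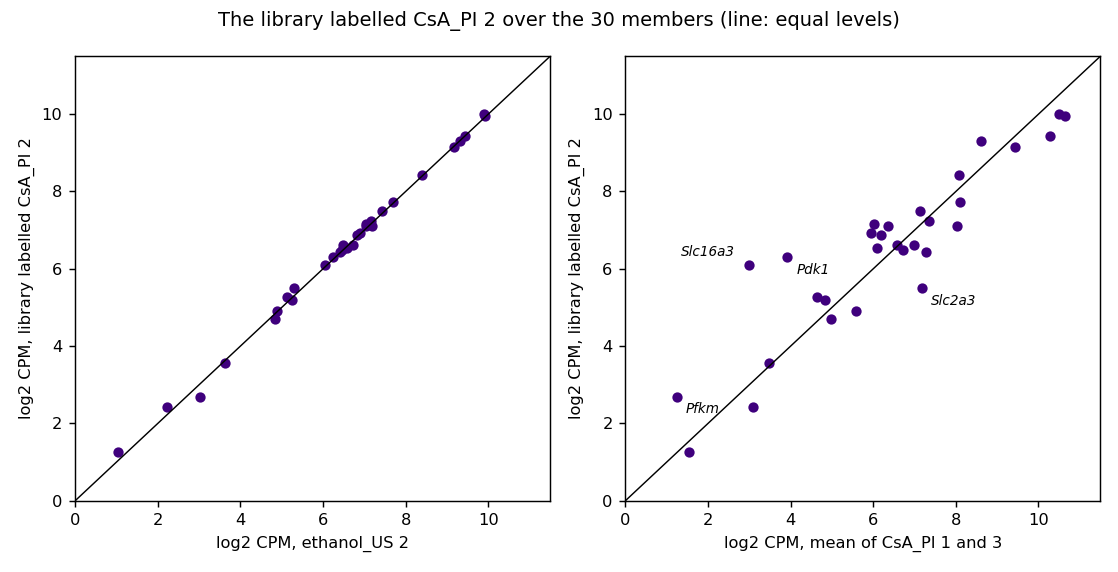
Log2 CPM of the 30 members in the library labelled CsA_PI 2 (y axis) against ethanol_US 2 (left, x axis) and against the mean of CsA_PI 1 and 3 (right, x axis); the line marks equal levels and each point is 1 gene. The points lie along the line on the left, with ratios of 0.796 to 1.16, and scatter around it on the right, where the 4 genes farthest from the line are named.

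In resting cells, transcript abundance was concentrated in 5 enzymes. On the TPM scale (transcript abundance corrected for length, so that genes can be compared), Ldha had a mean of 995 TPM in ethanol_US, Aldoa 897, Eno1 835, Pkm 725 and Gapdh 679. Together these 5 made up 71.4% of the TPM of all members. Copies that share sequence with Gapdh and Eno1 were assigned counts of their own, left out here, so their places and this share are less certain. Hk2 was the lowest member at 3.41 TPM, followed by Pfkm at 3.43 and Aldoc at 3.49. The 30 members together held 0.558% to 0.602% of all TPM in ethanol_US and 0.506% to 0.547% in CsA_US. They held 0.744% to 0.790% in ethanol_PI, above every other library. In CsA_PI the shares were 0.509%, 0.613% and 0.611% for replicates 1, 2 and 3.

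Stimulation of vehicle-treated cells raised Hk2, Slc16a1, Pgam1 and Hk1 most among the members, and lowered Pdk1 most. With all 12 libraries 13 of 30 members rose (43.3%, where 20.1% of all genes tested were called higher) and 2 fell (6.67%, beside 19.7% of all genes). With CsA_PI 2 left out 15 rose (50%, beside 22.2% of all genes) and 5 fell (16.7%, beside 21.9%). The median log2 fold change over the members was 0.55 with all 12 libraries, beside -0.02 over all genes tested. Scaling by library totals in place of TMM moved the median of all genes to -0.63, and then 10 members rose and 7 fell; of all genes 1580 were then called higher and 5437 lower, in place of 2892 and 2836. A gene was called at an edgeR adjusted p (Benjamini-Hochberg over all genes tested) under 0.05, and fold changes are log2 values ± SE.

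CsA lowered a subset of these transcripts in stimulated cells, and no member was called higher with 12 or with 11 libraries. With all 12 libraries 10 of 30 members were lower in CsA_PI than in ethanol_PI (33.3%, beside 12.7% of all genes) and 0 were higher, where 10.3% of all genes were. With CsA_PI 2 left out 11 were lower (36.7%, beside 12.9%) and 0 higher (beside 9.66%). The median member was at -0.32 with all 12 libraries (0.06 over all genes) and at -0.46 with 11 (0.01 over all genes). Library totals gave 8 lower members, with 2870 genes higher and 1193 lower over all genes in place of 1485 and 1833. DESeq2 also called 10 members lower and 0 higher, and 13 members had an unadjusted p under 0.05 in edgeR.

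**Figure D2:**
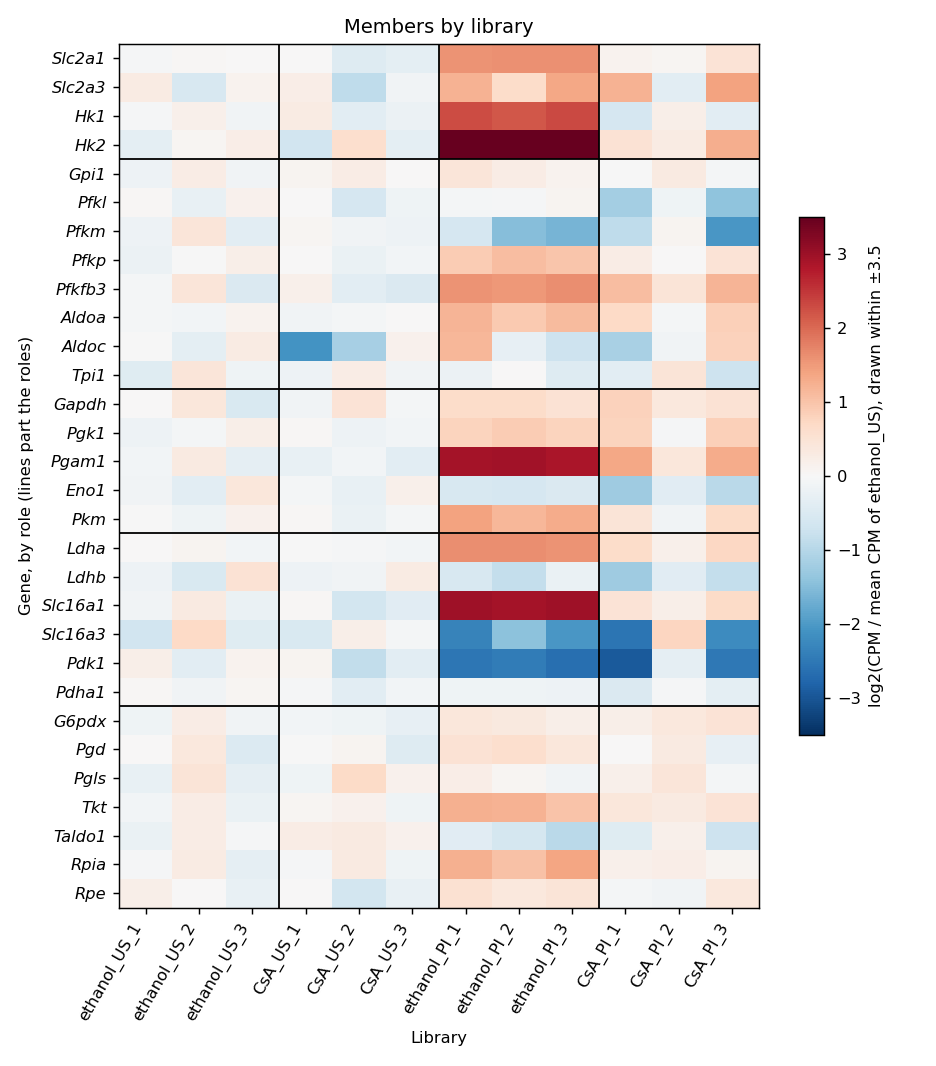
Level of each member (rows, by role from glucose entry at the top to the pentose phosphate pathway at the bottom) in each of 12 libraries (columns), as log2 of its CPM over the mean CPM of ethanol_US; colours are drawn within ±3.5. The ethanol_PI columns are darkest red for Hk2, Slc16a1, Pgam1 and Hk1, CsA_PI 1 and 3 are paler there, and the CsA_PI 2 column resembles the ethanol_US columns.

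At glucose entry, the transporter Slc2a1 and both hexokinases rose with stimulation and were lower with CsA. Slc2a1, which encodes the transporter GLUT1, was at 83.7, 87.6 and 86.5 CPM in ethanol_US and at 254, 258 and 258 CPM in ethanol_PI. It was at 86.6, 63.1 and 67.8 CPM in CsA_US and at 93.1, 89.4 and 119 CPM in CsA_PI 1, 2 and 3. All ethanol_PI libraries stood above all others, and CsA_PI lay slightly above the unstimulated libraries. Slc2a1 rose by 1.58 ± 0.17 in vehicle (adjusted p = 2.07e-05), and CsA lowered it in stimulated cells (-1.35 ± 0.17, adjusted p = 0.00012; -1.27 ± 0.17 with CsA_PI 2 left out).

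Slc2a3 encodes GLUT3, a transporter of high affinity for glucose. Its level was 71.2, 39.5 and 63.9 CPM in ethanol_US, 136, 91.5 and 149 CPM in ethanol_PI, 68, 31.2 and 53.5 CPM in CsA_US and 136, 45 and 154 CPM in CsA_PI. The replicate 2 library was the lowest of every group. CsA_PI 1 and 3 were level with ethanol_PI 1 and 3. The rise in vehicle was 1.11 ± 0.43 (adjusted p = 0.0601) with all 12 libraries. It passed the threshold with CsA_PI 2 left out (1.1 ± 0.30, adjusted p = 0.0109) and with a replicate block, which fits the replicate number as a term (1.13, adjusted p = 0.00215). With 11 libraries it also rose under CsA (1.5 ± 0.32, adjusted p = 0.00508; 0.0490 with the block and all 12 libraries), and CsA_PI differed from ethanol_PI by 0.21 ± 0.33 (adjusted p = 0.717). The TPM ratio of Slc2a1 to Slc2a3 was 1.13 and 1.23 in CsA_PI 1 and 3, below the 2.48 to 4.26 of ethanol_PI.

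Hk1, a hexokinase that binds mitochondria, was at 98.5, 114 and 92.3 CPM in ethanol_US and 491, 453 and 500 CPM in ethanol_PI. Under CsA it was at 124, 78.3 and 87.3 CPM unstimulated and at 67.6, 117 and 78.5 CPM stimulated. No CsA_PI library rose above the unstimulated range. Hk1 rose in vehicle by 2.25 ± 0.23 (adjusted p = 1.89e-05) and was lower in CsA_PI than in ethanol_PI (-2.45 ± 0.23, adjusted p = 2.05e-05; -2.72 ± 0.21 with CsA_PI 2 left out). Its stimulation effect under CsA was -0.14 ± 0.22 with all 12 libraries and -0.41 ± 0.19 with 11, neither called. Hk2, the inducible hexokinase, had the largest fold change of the 30: 3.5, 4.66 and 5.18 CPM in ethanol_US against 50.4, 67.8 and 53.3 CPM in ethanol_PI. It was at 2.78, 6.72 and 3.52 CPM in CsA_US and 6.26, 5.39 and 10.7 CPM in CsA_PI. Only ethanol_PI stood clear of the other groups. Hk2 rose by 3.68 ± 0.37 in vehicle (adjusted p = 1.62e-05), and CsA lowered it (-2.95 ± 0.36, adjusted p = 0.00012; -2.76 ± 0.38 with 11 libraries). Although its fold change was larger than that of Hk1, Hk2 remained the scarcer transcript, at 0.0839 to 0.189 times the TPM of Hk1 in ethanol_PI and 0.0405 to 0.0964 in ethanol_US.

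**Figure D3:**
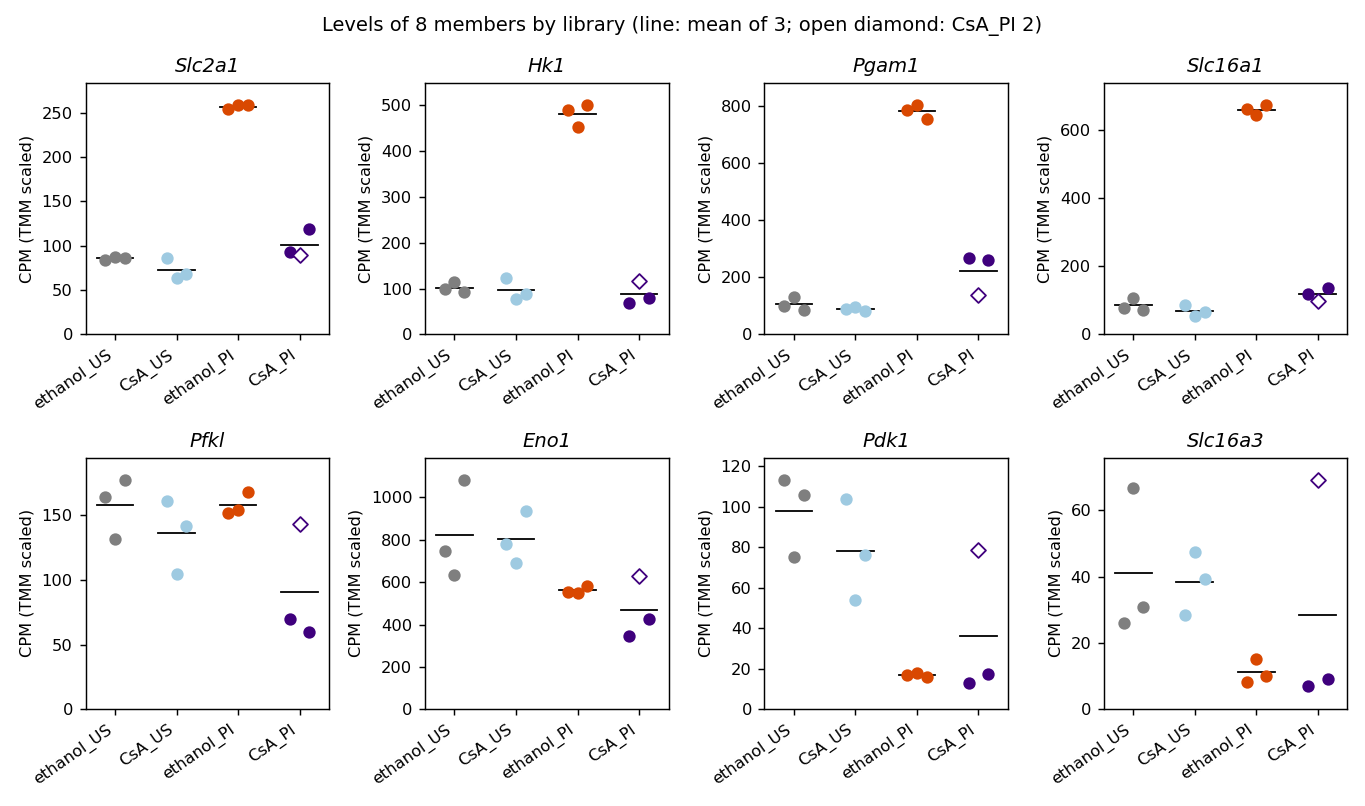
TMM-scaled CPM of 8 members (y axes, starting at 0) in the 4 groups (x axis); each point is a library, the line is the mean of 3 and the open diamond is the library labelled CsA_PI 2. Slc2a1, Hk1, Pgam1 and Slc16a1 are highest in ethanol_PI (Hk1 at 453 to 500 CPM), and Pgam1 in CsA_PI 1 and 3 lies in between. Pfkl is low in CsA_PI 1 and 3 alone, and Pdk1 and Slc16a3 are low in ethanol_PI and in CsA_PI 1 and 3.

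In upper glycolysis, 3 of 8 members rose in vehicle and none fell with all 12 libraries. Pfkp, the platelet-type phosphofructokinase, was at 183, 208 and 241 CPM in ethanol_US, 394, 445 and 411 in ethanol_PI, 215, 179 and 196 in CsA_US and 252, 211 and 296 in CsA_PI. It rose in vehicle by 0.98 ± 0.17 (adjusted p = 0.000813) and was lower with CsA (-0.72 ± 0.17, adjusted p = 0.00952; -0.60 ± 0.16 with 11 libraries). Scaled by library totals, Pfkp missed both calls with all 12 libraries (0.38, adjusted p = 0.0653, and -0.40, adjusted p = 0.0771). Pfkfb3, whose product makes the allosteric activator of phosphofructokinase, was at 21, 29.4 and 15.4 CPM in ethanol_US, 65.4, 63.1 and 67.9 in ethanol_PI, 24.6, 17.1 and 15.5 in CsA_US and 46.4, 30.2 and 49.7 in CsA_PI. It rose in both settings: 1.58 ± 0.27 in vehicle (adjusted p = 0.000679) and 1.14 ± 0.27 under CsA (adjusted p = 0.0423; 0.0501 with the replicate block; 1.32 ± 0.25 with 11 libraries). The CsA_PI libraries all lay below ethanol_PI, a difference of -0.64 ± 0.27 that was not called (adjusted p = 0.105).

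Aldoa, the main aldolase, was at 703, 688 and 802 CPM in ethanol_US, 1670, 1380 and 1570 in ethanol_PI, 674, 695 and 731 in CsA_US and 1190, 697 and 1310 in CsA_PI. It rose by 1.08 ± 0.22 in vehicle (adjusted p = 0.00223) and, with 11 libraries, by 0.83 ± 0.14 under CsA (adjusted p = 0.000864). CsA_PI 1 and 3 stood between the unstimulated and the vehicle-stimulated libraries. Aldoc, the minor aldolase, stayed at 0.612 to 5.84 CPM in all 12 libraries and was not called. Gpi1, the glucose 6-phosphate isomerase (248 to 377 CPM), and Tpi1, the triose phosphate isomerase (54.5 to 122 CPM), were not called either, with 12 or 11 libraries and TMM scaling.

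Pfkl, the liver-type phosphofructokinase, had a pattern of its own. It was at 164, 132 and 177 CPM in ethanol_US, 152, 154 and 168 in ethanol_PI, 161, 105 and 142 in CsA_US and 69.5, 143 and 59.5 in CsA_PI. Vehicle-stimulated cells lay within the range of the unstimulated ones, and CsA_PI 1 and 3 lay below every other library. With 11 libraries Pfkl was lower in CsA_PI than in ethanol_PI (-1.29 ± 0.20, adjusted p = 0.000387) and than in CsA_US (-1.08 ± 0.19, adjusted p = 0.00107), while its change in vehicle was -0.01 ± 0.17. With all 12 libraries none of these was called (-0.80 ± 0.29, adjusted p = 0.0633, for CsA in stimulated cells), so the call rests on the 2 libraries CsA_PI 1 and 3. By library totals with 11 libraries Pfkl was also called lower in vehicle (-0.61, adjusted p = 0.012), so a fall with CsA alone depended on the scaling. Pfkm, the muscle-type isoform, was scarce at 1.47 to 8.14 CPM and lower in each ethanol_PI library than in any ethanol_US library. The change in vehicle of -1.16 ± 0.39 was called with 11 libraries (adjusted p = 0.0264) and not with 12 (-1.15 ± 0.48, adjusted p = 0.076).

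In lower glycolysis, phosphoglycerate mutase changed most. Pgam1, which shifts the phosphate of phosphoglycerate, was at 98.7, 131 and 84.6 CPM in ethanol_US and 786, 801 and 754 CPM in ethanol_PI. It was at 87.9, 97.5 and 81.7 CPM in CsA_US and 267, 139 and 259 CPM in CsA_PI. Every CsA_PI library was above every unstimulated library and below every ethanol_PI library. Pgam1 rose by 2.90 ± 0.26 in vehicle (adjusted p = 7.83e-06) and by 1.32 ± 0.24 under CsA (adjusted p = 0.0395; 1.56 ± 0.17 with 11 libraries), and CsA_PI was lower than ethanol_PI (-1.82 ± 0.25, adjusted p = 0.000235; -1.57 ± 0.18 with 11). A processed pseudogene, Pgam1-ps2, shares all of its 31-base words with Pgam1 and was assigned 92.6 to 1189.6 counts; with the counts of such copies added, the calls of Pgam1 were the same.

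Pkm, the pyruvate kinase gene, was at 1060, 967 and 1190 CPM in ethanol_US, 2830, 2400 and 2640 in ethanol_PI, 1110, 915 and 1030 in CsA_US and 1460, 990 and 1710 in CsA_PI. Stimulation raised it by 1.29 ± 0.21 in vehicle (adjusted p = 0.000549), and it was lower with CsA (-0.92 ± 0.21, adjusted p = 0.008; -0.72 ± 0.17 with 11 libraries). Pgk1, phosphoglycerate kinase, was at 78.1 to 103 CPM in ethanol_US and 153 to 166 CPM in ethanol_PI, and CsA_PI 1 and 3, at 152 and 158 CPM, were level with ethanol_PI. Pgk1 rose by 0.83 ± 0.21 (adjusted p = 0.00763), a call lost without ethanol_US 1 (adjusted p = 0.0512) and by library totals (0.22, adjusted p = 0.317). It too has full copies, Pgk1-rs7 (0.6 to 871.3 counts) and Gm5537 (0 to 154.2 counts), so that its own share of the reads is uncertain.

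Gapdh, which reduces NAD in the first energy-yielding step, was at 438, 575 and 301 CPM in ethanol_US, 684, 686 and 625 in ethanol_PI, 406, 609 and 418 in CsA_US and 770, 569 and 617 in CsA_PI. The difference in vehicle of 0.60 ± 0.24 was not called with all 12 libraries (adjusted p = 0.0676). It was called with 11 libraries (0.59 ± 0.22, adjusted p = 0.0459), with the replicate block (0.64, adjusted p = 0.0357), with copies added (0.73, adjusted p = 0.0351) and also without ethanol_US 2 (adjusted p = 0.0205). By library totals with 11 libraries it was 0.00. The pseudogenes Gm7336, Gm10359 and Gm12671 share 97.3% to 100% of their 31-base words with Gapdh, and each was assigned 610.6 to 2035.1 counts. Eno1, the enolase, was at 749, 636 and 1080 CPM in ethanol_US, 555, 550 and 582 in ethanol_PI, 780, 691 and 937 in CsA_US and 348, 629 and 427 in CsA_PI. The stimulated libraries were all below the unstimulated ones, without overlap. With 11 libraries Eno1 fell in vehicle (-0.56 ± 0.19, adjusted p = 0.0306) and under CsA (-1.05 ± 0.22, adjusted p = 0.00305), and with all 12 neither change was called (-0.55 ± 0.25, adjusted p = 0.1, and -0.78 ± 0.25, adjusted p = 0.0812). With 11 libraries and the block, Eno1 was also lower in CsA_PI than in ethanol_PI (-0.64, adjusted p = 0.00941), and Gapdh rose under CsA (0.69, adjusted p = 0.00828). The Eno1 copy Gm4735 was assigned 146.3 to 1838 counts.

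Pkm is spliced into the M1 or the M2 enzyme by the choice between 2 exons of equal length. Both are shown, from the + strand of chromosome 9 in mm10 (M1 exon chr9:59675029-59675195, M2 exon chr9:59675568-59675734), because the files count their transcripts separately. Capitals mark the 64 of 167 bases that differ.
Pkm M1 exon: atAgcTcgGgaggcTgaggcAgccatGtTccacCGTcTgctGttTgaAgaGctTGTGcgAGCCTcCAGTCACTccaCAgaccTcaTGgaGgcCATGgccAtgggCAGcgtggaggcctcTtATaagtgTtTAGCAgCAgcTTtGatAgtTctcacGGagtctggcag
Pkm M2 exon: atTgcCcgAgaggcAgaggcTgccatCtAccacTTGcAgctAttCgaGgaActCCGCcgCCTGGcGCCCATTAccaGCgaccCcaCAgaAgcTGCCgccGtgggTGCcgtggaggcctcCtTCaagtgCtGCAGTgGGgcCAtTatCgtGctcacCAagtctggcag
The exons are 61.7% identical, so that reads can be told apart along most of their length. The M2 transcript Pkm-201 made up 93.9% to 97.3% of M1 plus M2 TPM over all 12 libraries. In ethanol_US the share was 95.6%, 97.1% and 95.2%, and in ethanol_PI 95.8%, 93.9% and 95.5%, so the groups overlapped while the gene's level rose. CsA_PI, at 95.6%, 95.5% and 95.8%, lay inside the same range. The 2 transcripts also differ at their ends, and the estimate can rest on those too.

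Around pyruvate and lactate, Ldha and Slc16a1 rose in vehicle and Pdk1 fell, while the second lactate exporter gene, Slc16a3, was lower after stimulation. Ldha, the muscle-type lactate dehydrogenase subunit, was at 903, 949 and 835 CPM in ethanol_US, 2770, 2790 and 2680 in ethanol_PI, 883, 870 and 844 in CsA_US and 1410, 1020 and 1490 in CsA_PI. The CsA_PI libraries lay between the others without overlap. Ldha rose by 1.62 ± 0.18 (adjusted p = 3.22e-05) and was lower with CsA (-1.07 ± 0.18, adjusted p = 0.00102; -0.92 ± 0.14 with 11 libraries). Under CsA its own rise was called with 11 libraries (0.74 ± 0.14, adjusted p = 0.00125) and not with 12 (0.59 ± 0.18, adjusted p = 0.0676). Ldhb, the heart-type subunit, was at 35.1 to 71.7 CPM in ethanol_US, 28.3 to 42.6 CPM in ethanol_PI, 44.6 to 61.9 CPM in CsA_US, and 21.4 and 28.5 CPM in CsA_PI 1 and 3. The change in vehicle was not called (-0.52 ± 0.29, adjusted p = 0.174), and Ldhb fell under CsA with 11 libraries (-1.04 ± 0.30, adjusted p = 0.019). The replicate block with CsA_PI 2 left out also called Ldhb lower in vehicle (-0.49, adjusted p = 0.0179) and lower in CsA_PI than in ethanol_PI (-0.62, adjusted p = 0.0233).

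Slc16a1, which encodes the lactate transporter MCT1, had the lowest adjusted p of the members in vehicle with all 12 libraries. It was at 78, 106 and 72.6 CPM in ethanol_US and 664, 645 and 673 CPM in ethanol_PI, against 87.5, 54.9 and 65.5 CPM in CsA_US and 120, 98.5 and 135 CPM in CsA_PI. The CsA_PI libraries were far below ethanol_PI and just above the CsA_US range. Slc16a1 rose by 2.95 ± 0.22 in vehicle (adjusted p = 3.64e-06) and was lower with CsA (-2.49 ± 0.22, adjusted p = 1.35e-05; -2.37 ± 0.22 with 11 libraries). Slc16a3 encodes MCT4, the other lactate exporter, and was at 26.1, 66.7 and 30.8 CPM in ethanol_US, 8.22, 15.2 and 10.1 in ethanol_PI, 28.5, 47.4 and 39.2 in CsA_US and 6.98, 69 and 9.02 in CsA_PI. The change in vehicle was called with 11 libraries (-1.88 ± 0.37, adjusted p = 0.0013) and with the replicate block (-1.79, adjusted p = 0.0135), but not with all 12 and no block (-1.88 ± 0.78, adjusted p = 0.0826; 0.0461 without CsA_PI 1). Replicate 2 was the highest library of every group for Slc16a3, and it was also the library with the most myeloid markers, whose part in the level of Slc16a3 was not tested.

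Pdk1, a kinase that switches pyruvate dehydrogenase off, was at 113, 75.2 and 106 CPM in ethanol_US and 17, 17.9 and 15.8 CPM in ethanol_PI. It was at 104, 54.1 and 76.3 CPM in CsA_US and 12.8, 78.7 and 17.4 CPM in CsA_PI. Apart from CsA_PI 2, every stimulated library was below every unstimulated one, with or without CsA. Pdk1 fell by 2.54 ± 0.59 in vehicle (adjusted p = 0.00589; SE 0.25 with 11 libraries) and, with 11 libraries, fell by 2.38 ± 0.28 under CsA (adjusted p = 5.38e-05). CsA_PI differed from ethanol_PI by -0.16 ± 0.27 with 11 libraries (adjusted p = 0.749) and by 1.11 ± 0.57 with 12 (adjusted p = 0.196), not called in either. Without CsA_PI 1 Pdk1 was called higher with CsA (adjusted p = 0.0495). Pdha1, a subunit of the dehydrogenase itself, was at 132 to 194 CPM throughout and was not called with 12 or 11 libraries and TMM scaling.

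Ratios between related genes were also taken within each library, a measure that scaling between libraries does not touch. The Slc16a3 to Slc16a1 TPM ratio was 0.807, 1.52 and 1.06 in ethanol_US and 0.0381, 0.0423 and 0.0278 in ethanol_PI. It was 0.804, 2.26 and 1.32 in CsA_US and 0.0983, 1.85 and 0.14 in CsA_PI. MCT4 transcripts were thus about as abundant as those of MCT1 in resting cells and far scarcer after stimulation in vehicle. The Ldhb to Ldha ratio went from 0.0464 to 0.107 in ethanol_US to 0.0128 to 0.0199 in ethanol_PI, and the Pdk1 to Pdha1 ratio from 0.465 to 0.663 to 0.114 to 0.132. The Pfkp to Pfkl ratio went from 1.97 to 2.56 up to 4.32 to 4.91, and was higher again in CsA_PI 1 and 3 (6.33 and 8.09), where Pfkl was low. In log2 units the changes in vehicle were -4.94 for Slc16a3/Slc16a1, -2.08 for Ldhb/Ldha, -2.26 for Pdk1/Pdha1 and 1.00 for Pfkp/Pfkl, with no overlap between the groups. The Aldoc/Aldoa ratio also changed without overlap (-0.83), and the other 3 pairs overlapped. With 3 libraries against 3, the two-sided exact permutation test cannot go below p = 0.1, which these 5 ratios reached in vehicle. Slc16a3/Slc16a1 for CsA in stimulated cells (3.05; 1.72 with CsA_PI 2 left out) and Ldhb/Ldha for stimulation under CsA (-1.39; -1.77) reached it too, and over the 32 ratio tests (8 pairs of genes in 4 comparisons) the lowest adjusted p was 0.457. None of the ratios could pass the threshold in this design.

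**Figure D4:**
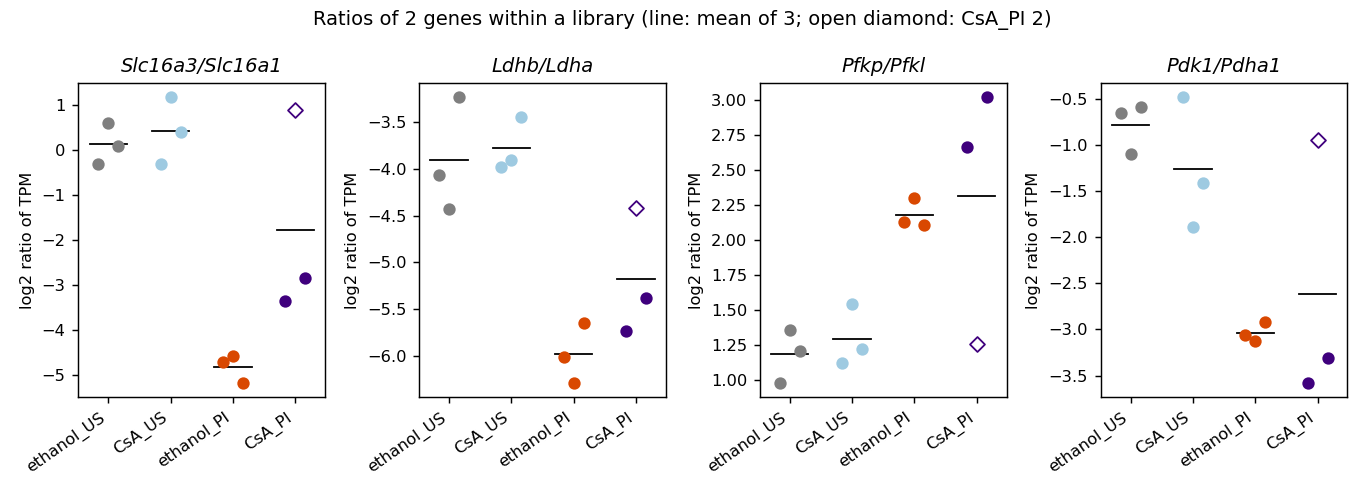
Log2 ratio of the TPM of 2 related genes within each library (y axes) in the 4 groups (x axis); points are libraries, the line is the mean of 3 and the open diamond is the library labelled CsA_PI 2. In ethanol_PI the Slc16a3/Slc16a1, Ldhb/Ldha and Pdk1/Pdha1 ratios lie below ethanol_US and Pfkp/Pfkl lies above it (mean log2 changes -4.94, -2.08, -2.26 and 1.00).

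In the pentose phosphate pathway, Tkt and Rpia rose in vehicle and Taldo1 fell, all 3 of the non-oxidative arm, and calls in the oxidative arm depended on the fit. Tkt, the transketolase that links the pathway back to glycolysis, was at 112, 144 and 103 CPM in ethanol_US, 282, 279 and 238 in ethanol_PI, 126, 133 and 108 in CsA_US and 157, 150 and 168 in CsA_PI. The CsA_PI libraries were above all unstimulated ones and below all of ethanol_PI. Tkt rose by 1.15 ± 0.17 in vehicle (adjusted p = 0.000204) and was lower with CsA (-0.75 ± 0.17, adjusted p = 0.00592; -0.71 ± 0.17 with 11 libraries), a call that scaling by library totals lost with all 12 libraries (-0.42, adjusted p = 0.0665). Rpia, the ribose 5-phosphate isomerase, was at 9.87, 12.3 and 8.15 CPM in ethanol_US, 23.7, 20.4 and 26.1 in ethanol_PI, 9.89, 12.6 and 9.07 in CsA_US and 11.4, 11.9 and 10.8 in CsA_PI. CsA_PI lay inside the unstimulated range. Rpia rose by 1.21 ± 0.23 (adjusted p = 0.0012) and was lower with CsA (-1.04 ± 0.23, adjusted p = 0.00562; -1.07 ± 0.25 with 11 libraries); by library totals with all 12 libraries the rise was 0.60 (adjusted p = 0.0541).

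Taldo1, the transaldolase, fell: it was at 104, 145 and 118 CPM in ethanol_US, 93.1, 79.2 and 63.7 in ethanol_PI, 146, 152 and 136 in CsA_US and 91, 138 and 74 in CsA_PI. It fell by 0.64 ± 0.23 in vehicle (adjusted p = 0.0428), a call lost without any 1 of 5 libraries (ethanol_US 2 or 3, CsA_US 1, ethanol_PI 2 or 3; adjusted p up to 0.158) and kept without CsA_PI 2 (-0.65 ± 0.17, adjusted p = 0.00659). With 11 libraries it fell by 0.82 ± 0.19 under CsA (adjusted p = 0.00584). Of the oxidative arm, G6pdx, the first enzyme, was at 62 to 89.3 CPM in unstimulated libraries and 86.3 to 105 CPM in stimulated ones. It rose under CsA with 11 libraries (0.53 ± 0.16, adjusted p = 0.0229; 0.17, adjusted p = 0.459, by library totals), and its difference in vehicle (0.31) was not called with 12 or 11 libraries but was without ethanol_US 2 (adjusted p = 0.0435). Pgd, which makes the second NADPH of the pathway, differed in vehicle by 0.49 ± 0.23 (adjusted p = 0.108), called with the replicate block (0.53, adjusted p = 0.0178) and without ethanol_US 2 (adjusted p = 0.0376); CsA_PI differed from ethanol_PI by -0.46 ± 0.23, again called with the block (-0.48, adjusted p = 0.0435). With the block and 11 libraries both were called too (0.52, adjusted p = 0.00701, and -0.50, adjusted p = 0.0343). Pgls, the lactonase, at 22.1 to 44.3 CPM, and Rpe, the epimerase, at 17.9 to 41 CPM, were not called with 12 or 11 libraries.

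CsA in unstimulated cells moved no member past the threshold. In edgeR 0 of 30 were called, beside 0.00695% of all genes (1 gene), 0 had an unadjusted p under 0.05, and DESeq2 called 0. The members' log2 differences ran from -0.76 (Aldoc) to 0.26, with a median of -0.08.

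Stimulation in the presence of CsA depended on the library labelled CsA_PI 2. With all 12 libraries 2 of 30 members rose (6.67%, beside 3.9% of all genes), namely Pfkfb3 and Pgam1, and 0 fell (beside 1.38%). Both calls were lost without any 1 of 9 libraries (all but ethanol_US 2, ethanol_US 3 and CsA_PI 2), with adjusted p up to 0.207 and 0.199. At this setting 14 had an unadjusted p under 0.05 and DESeq2 called 6 higher and 1 lower. With CsA_PI 2 left out 11 rose (36.7%, beside 14.9%) and 7 fell (23.3%, beside 14.2%). The 11 were Slc2a1, Slc2a3, Pfkp, Pfkfb3, Aldoa, Pgk1, Pgam1, Pkm, Ldha, Slc16a1 and G6pdx. The 7 were Pfkl, Pfkm, Eno1, Ldhb, Slc16a3, Pdk1 and Taldo1. The 11-library values rest on CsA_PI 1 and 3, and scaling by library totals changed them to 5 higher and 11 lower, with a median of all genes of -0.36.

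The interaction subtracts the response in vehicle from the response with CsA. A negative value means a response further down with CsA than in vehicle, such as a smaller rise or a larger fall. With all 12 libraries 7 of 30 members had a negative interaction (23.3%, beside 6.19% of all genes) and 0 a positive one (beside 3.54%). They were Hk2 (-2.91 ± 0.49), Hk1 (-2.38 ± 0.32), Slc16a1 (-2.19 ± 0.30), Pgam1 (-1.58 ± 0.34), Slc2a1 (-1.11 ± 0.23), Rpia (-1.09 ± 0.32) and Ldha (-1.02 ± 0.25), with adjusted p from 0.00097 for Hk1 to 0.0478 for Rpia. With CsA_PI 2 left out Tkt (-0.74 ± 0.22) and Pfkl (-1.07 ± 0.25) joined them, 9 of 30 (30%, beside 7.88%), and 0 were positive (beside 5.03%). For Pfkl this was a fall under CsA (-1.08 ± 0.19) beside -0.01 ± 0.17 in vehicle. By library totals with 11 libraries the interaction of Pfkl was not called (-0.84, adjusted p = 0.0604). With the replicate block Tkt (-0.78, adjusted p = 0.0472) and Pkm (-0.87, adjusted p = 0.0428) joined the 7. By library totals with all 12 libraries Slc2a1 (-0.76, adjusted p = 0.0564) and Rpia (-0.72, adjusted p = 0.182) dropped out. The call of Rpia was also lost without any 1 of 10 libraries (all but ethanol_US 2 and CsA_PI 2; adjusted p up to 0.134). That of Ldha was lost without any 1 of 7 (ethanol_US 1 or 3, CsA_US 1 or 3, or any of ethanol_PI; adjusted p up to 0.0695).

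Set side by side from 11 libraries, the responses took several forms. Slc2a1, Pgam1, Ldha and Slc16a1 rose in vehicle, rose under CsA and had a negative interaction: their rises were 1.57 and 0.54, 2.89 and 1.56, 1.61 and 0.74, and 2.94 and 0.87 in vehicle and CsA respectively. By library totals the rise under CsA was not called for Slc2a1 (0.18, adjusted p = 0.471), Ldha (0.37, adjusted p = 0.0576) and Slc16a1 (0.50, adjusted p = 0.0726). Hk1, Hk2, Tkt and Rpia rose in vehicle with a negative interaction and no call under CsA without the block. With the replicate block, Hk2 (1.17, adjusted p = 0.00553) and Tkt (0.49, adjusted p = 0.0169) were called higher under CsA. By library totals Hk1 was called lower under CsA (-0.77, adjusted p = 0.00835), and the interactions of Tkt (-0.51, adjusted p = 0.142) and Rpia (-0.89, adjusted p = 0.0867) were not called. Slc2a3, Pfkp, Pfkfb3, Aldoa, Pgk1 and Pkm rose in both settings with no interaction called; for Pgk1 the interaction was 0.06 ± 0.19 and for Aldoa -0.23 ± 0.20, while for Pkm it was -0.65 ± 0.22 (adjusted p = 0.0722) and was called with the block (-0.72, adjusted p = 0.0184). By library totals Pfkp (0.11, adjusted p = 0.675) and Pkm (0.27, adjusted p = 0.263) were not called under CsA, nor Slc2a3 (0.48, adjusted p = 0.214) and Pgk1 (0.22, adjusted p = 0.208) in vehicle. Pfkm, Eno1, Slc16a3, Pdk1 and Taldo1 fell in both settings with no interaction called, and Pdk1 had 0.17 ± 0.35. A missed threshold does not show that the effects were equal. The libraries of CsA_PI are shared by these comparisons, so they are not independent of each other.

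**Figure D5:**
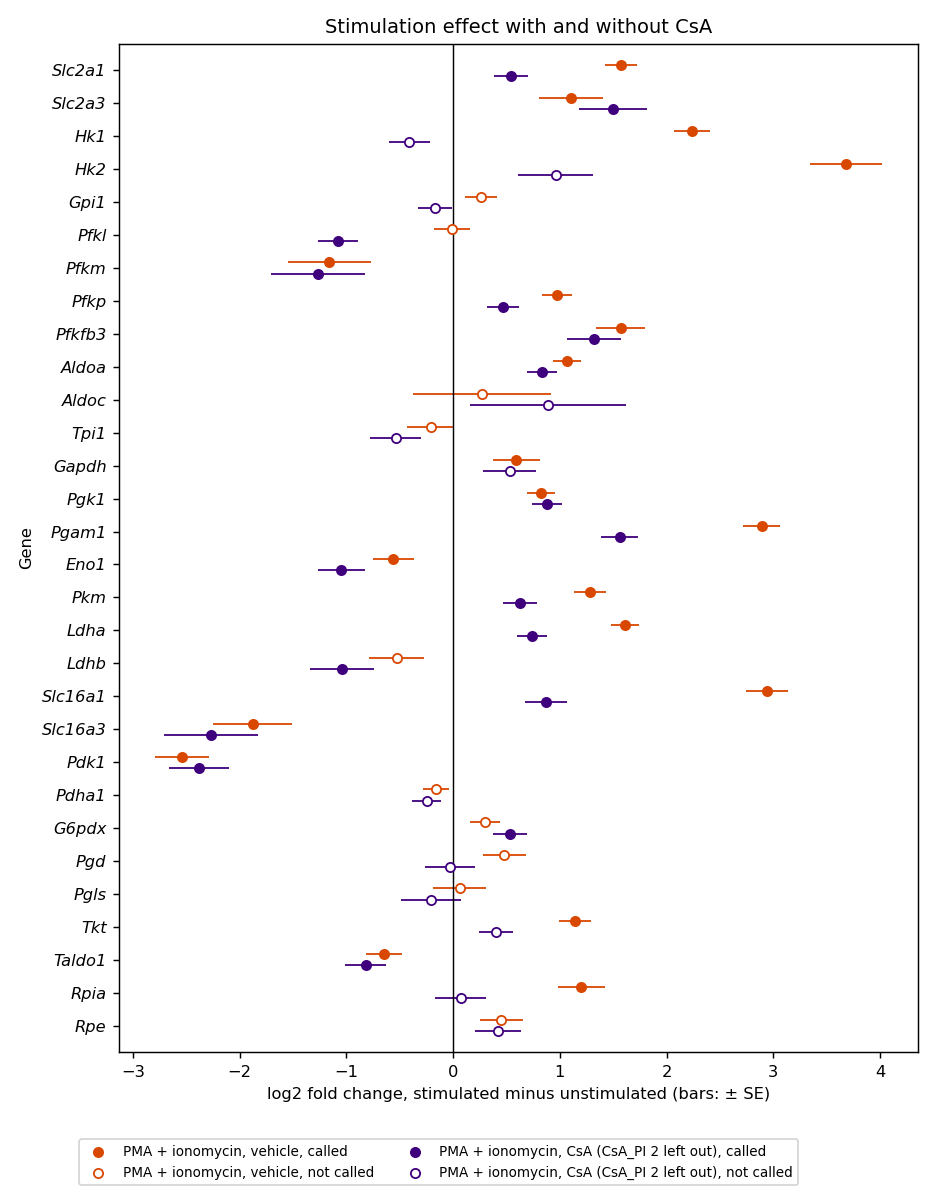
Log2 fold change of each member with stimulation in vehicle (orange) and under CsA (purple), ± SE, from 11 libraries (CsA_PI 2 left out); filled points were called at an adjusted p under 0.05. The colours lie far apart for Hk2, Hk1, Slc16a1 and Pgam1 and close together for Pgk1, Aldoa and Pdk1; for Pfkl only the CsA point is away from 0.

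Further genes of the same pathways were taken from a list of 53, chosen by function. Of these 53 related genes, 44 were tested; in vehicle 7 rose (15.9%) and 12 fell (27.3%) with all 12 libraries, beside 20.1% and 19.7% of all genes. With 11 libraries 8 rose (18.2%) and 14 fell (31.8%), beside 22.2% and 21.9%. The largest rises were Tigar, a fructose bisphosphatase that favours the pentose phosphate pathway (1.85 ± 0.29), Gpd2, the mitochondrial glycerol 3-phosphate dehydrogenase (1.81 ± 0.23), Prps1, which turns ribose 5-phosphate into the nucleotide precursor PRPP (1.04 ± 0.21), and the phosphatase Pgam5 (0.93 ± 0.15). With 11 libraries each of these 4 was called as well. Pdk2, like Pdk1 a kinase of pyruvate dehydrogenase, fell most (-3.70 ± 1.16, adjusted p = 0.0277), from 19.5 to 30.2 CPM in ethanol_US to 0.985 to 2.98 CPM in ethanol_PI. Other large falls were Pgm2l1 (-3.03 ± 0.63), the sugar transporter gene Slc2a8 (-2.23 ± 0.42) and the bisphosphoglycerate mutase gene Bpgm (-2.17 ± 0.43).

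With CsA in stimulated cells, 7 related genes were lower (15.9%) and 5 higher (11.4%), shares near the 12.7% and 10.3% of all genes. The largest falls were Prps1 (-1.34 ± 0.21), Tigar (-1.29 ± 0.29), Pdp2 (-0.98 ± 0.19) and Pdp1 (-0.94 ± 0.30), the last a pair of phosphatases that switch pyruvate dehydrogenase on. The largest rises were the ribokinase gene Rbks (1.24 ± 0.38), Slc2a8 (1.24 ± 0.42), Pfkfb4 (1.11 ± 0.27) and the phosphoglucomutase gene Pgm1 (0.81 ± 0.21). With CsA_PI 2 left out 7 were lower (15.9%, beside 12.9%) and 3 higher (6.82%, beside 9.66%), and Slc2a8 (0.46 ± 0.27, adjusted p = 0.264) was no longer called.

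Among 20 tested regulators of these pathways, 7 rose (35%, beside 20.1% of all genes) and 3 fell (15%, beside 19.7%) in vehicle. With CsA in stimulated cells 3 were higher (15%, beside 10.3%) and 3 lower (15%, beside 12.7%). With 11 libraries 7 rose and 5 fell in vehicle (beside 22.2% and 21.9%), and 3 were higher and 4 lower with CsA (beside 9.66% and 12.9%). Myc, a transcription factor known to drive glycolytic genes in activated T cells, was at 66.5, 103 and 55.7 CPM in ethanol_US, 3880, 3710 and 3680 in ethanol_PI, 34.8, 49.1 and 32.9 in CsA_US and 673, 86.8 and 749 in CsA_PI. CsA_PI 1 and 3 stood between. Myc rose by 5.64 ± 0.69 (adjusted p = 0.000107) and was lower with CsA (-2.90 ± 0.61, adjusted p = 0.00574; -2.40 ± 0.27 with 11 libraries). Hif1a, the oxygen-regulated factor of glycolytic genes, was at 310, 423 and 333 CPM in ethanol_US, 902, 992 and 999 in ethanol_PI, 285, 269 and 277 in CsA_US and 1130, 403 and 1430 in CsA_PI. Hif1a rose by 1.44 ± 0.34 in vehicle and 1.84 ± 0.35 under CsA with all 12 libraries, where the interaction was not called (0.39 ± 0.48). With 11 libraries it rose by 1.43 ± 0.15 in vehicle and 2.21 ± 0.17 under CsA, with a positive interaction (0.77 ± 0.22, adjusted p = 0.0381).

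Txnip, whose product restrains glucose uptake, was at 239, 458 and 267 CPM in ethanol_US and 18.6, 19.1 and 23.3 CPM in ethanol_PI. It was at 335, 370 and 363 CPM in CsA_US and 26.6, 454 and 35.7 CPM in CsA_PI. CsA_PI 1 and 3 lay with ethanol_PI. Txnip fell by 3.98 ± 0.96 in vehicle (adjusted p = 0.00777). It was called higher with CsA from all 12 libraries (3.08 ± 0.92, adjusted p = 0.0362), a call that was lost without CsA_PI 2 (0.62 ± 0.25, adjusted p = 0.104). Of the other regulators, the largest changes were in Irf4, a T cell activation factor (5.17 ± 0.78 in vehicle, -2.17 ± 0.68 for CsA in stimulated cells), the prolyl hydroxylase gene Egln3 (2.09 ± 0.58 in vehicle) and Epas1, a relative of Hif1a, which was higher with CsA (1.71 ± 0.31, adjusted p = 0.00171).

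Promoters of the members were read from RefSeq on GRCm38.p6, and 29 of the 30 members had an entry. Each window runs from 250 bases upstream of the RefSeq transcription start to a short stretch past it. Motifs were counted over the whole window, and only the 250 upstream bases are printed below. The E box CACGTG, the site that Myc binds, was found on either strand in 4 of 29 members (13.8%: Pfkm, Pfkfb3, Ldha and Slc16a1), beside 8.09% of all genes. The core of the hypoxia element, ACGTG, which every such E box contains, was found in 15 members (51.7%), beside 21.8% of all genes, and its variant GCGTG in 21 (72.4%, beside 35.2%). The NFAT core GGAAA was found in 18 (62.1%, beside 64.4%) and the AP-1 site TGANTCA in 1 (3.45%, beside 8.97%). The promoters were not matched for base composition, and a match describes letters in a window, not binding. Of the members with the E box, Pfkm did not rise in vehicle (-1.15 ± 0.48). Pfkfb3 rose, and its difference with CsA in stimulated cells was not called (-0.64 ± 0.27). Whether the E box bears on any of these levels was not tested. Slc16a1 (+ strand, chr3:104638414-104638663) and Ldha (+ strand, chr7:46845554-46845803) are shown because both rose strongly, both were lower with CsA and both hold the E box, here in capitals. It starts 200 bases before the start site in Slc16a1, and 145 and 48 bases before it in Ldha.
Slc16a1 promoter: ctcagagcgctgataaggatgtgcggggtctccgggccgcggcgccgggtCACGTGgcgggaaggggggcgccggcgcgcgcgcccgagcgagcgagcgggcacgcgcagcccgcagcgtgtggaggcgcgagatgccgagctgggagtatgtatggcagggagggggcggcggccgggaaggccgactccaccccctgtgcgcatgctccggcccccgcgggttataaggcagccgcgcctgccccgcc
Ldha promoter: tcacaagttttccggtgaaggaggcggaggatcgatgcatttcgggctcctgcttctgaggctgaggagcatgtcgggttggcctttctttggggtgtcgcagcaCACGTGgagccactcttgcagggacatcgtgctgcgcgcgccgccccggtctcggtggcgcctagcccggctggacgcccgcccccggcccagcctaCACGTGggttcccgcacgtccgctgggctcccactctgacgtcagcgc
Hk2 (- strand, chr6:82774455-82774704) and Pgam1 (+ strand, chr19:41911621-41911870) had the largest rises among enzymes and hold ACGTG without the E box. Capitals mark ACGTG or its reverse complement, which starts 226 and 52 bases before the start site in Hk2 and 114 bases before it in Pgam1.
Hk2 promoter: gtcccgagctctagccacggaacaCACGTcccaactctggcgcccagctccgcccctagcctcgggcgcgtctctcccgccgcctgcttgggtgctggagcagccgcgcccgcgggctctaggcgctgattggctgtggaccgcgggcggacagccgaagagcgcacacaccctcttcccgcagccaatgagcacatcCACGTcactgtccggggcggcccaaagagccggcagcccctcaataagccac
Pgam1 promoter: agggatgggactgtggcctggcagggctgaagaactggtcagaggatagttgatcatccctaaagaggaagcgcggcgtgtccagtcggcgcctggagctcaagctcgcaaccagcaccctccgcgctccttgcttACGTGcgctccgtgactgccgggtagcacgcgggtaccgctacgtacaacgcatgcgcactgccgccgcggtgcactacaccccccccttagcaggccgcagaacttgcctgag

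In the annotation on mm10, Slc16a1 lies on chromosome 3 from 104638668 to 104658462 (+), Ldha on chromosome 7 from 46841475 to 46855627 (+), Hk2 on chromosome 6 from 82725025 to 82774454 (-), Hk1 on chromosome 10 from 62268855 to 62379908 (-) and Pgam1 on chromosome 19 from 41911923 to 41918660 (+). Pfkl lies on chromosome 10 from 77986947 to 78010083 (-), Slc2a1 on chromosome 4 from 119108711 to 119137983 (+), Pdk1 on chromosome 2 from 71873224 to 71903858 (+) and Slc16a3 on chromosome 11 from 120948480 to 120960868 (+).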

How the data were processed

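RNA-seq libraries were prepared by SMART-seq, per the labels' protocols. Per the submitters' processing notes, the authors used cutadapt, kallisto and mm10; versions and the transcript annotation are not given in the sources used here. Per the file headers, the deposited tables give for each transcript an estimated count (not scaled for depth), TPM (scaled for length and depth within a library), and its length and effective length in bases. Of 109617 transcripts, 108214 were matched by identifier to GENCODE annotation on mm10, and 92.5% of these had the annotated length. The 1403 unmatched ones held 0.494% to 0.628% of the counts and were left out.

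Estimated counts were summed per gene and rounded. All 12 libraries entered one edgeR 4.0.16 quasi-likelihood fit in R 4.3.3, with TMM scaling and the edgeR filter on low counts (minimum count 10, minimum total 15). The fit was also run on simulated counts with an even spread and no library apart from its group. That run does not check the results from these libraries. SE is the absolute log2 fold change over the square root of the test's F statistic; DESeq2 1.42.0 was an alternative. Levels of one gene are TMM-scaled CPM, and ratios between genes use TPM. Members, lists, ratios and tests were chosen with earlier results of these data known. All 30 members are named; of related genes, up to 4 largest called rises and 4 falls in each of 2 comparisons; of regulators, Hif1a, Myc, Txnip and 3 others by size.

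The labels number the replicates without saying what a number shares. For each pair of groups compared, the deviation of a library from its group mean was correlated over genes with that of the library with the same number. The 3 values were 0.143, 0.319 and 0.197 for ethanol_US and ethanol_PI, 0.196, 0.325 and 0.299 for ethanol_US and CsA_US, 0.165, 0.208 and 0.107 for ethanol_PI and CsA_PI, and 0.033, 0.11 and 0.123 for CsA_US and CsA_PI. Values with the block, for all 12 libraries and for 11, are printed where a member's call changed.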

Additional observations from a re-analysis of the deposited data

Results flagged for a closer look

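The stimulation effect of 7 members differed between CsA-treated and vehicle-treated cells by the edgeR interaction term with all 12 libraries, each more negative under CsA. The log2 differences were -1.11 for Slc2a1, -2.38 for Hk1, -2.91 for Hk2, -1.58 for Pgam1, -1.02 for Ldha, -2.19 for Slc16a1 and -1.09 for Rpia. With CsA_PI 2 left out they were -1.03, -2.64, -2.72, -1.33, -0.87, -2.07 and -1.13, all called. Groups of 3 libraries were too small for the check on single libraries far from the rest.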

How the results depend on the processing

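No called fold change of a member changed sign under the alternatives run. Pfkl, uncalled in vehicle at 0.00, was called at -0.61 by library totals with CsA_PI 2 left out. Members lower in vehicle, 2 with all 12 libraries, numbered 7 by library totals, 5 with only the 2 groups compared, 5 without both CsA_PI 2 and ethanol_US 2, 6 with the replicate block and CsA_PI 2 left out, and 9 by library totals with CsA_PI 2 left out. With stimulation under CsA, 2 higher and 0 lower in all 12 libraries, DESeq2 gave 6 and 1, library totals 0 higher, only the 2 groups compared 0 higher, leaving out both libraries 12 and 8, the replicate block with CsA_PI 2 left out 14 and 7, and library totals with CsA_PI 2 left out 5 and 11. The share of all genes called also moved with the setting. For stimulation under CsA, 3.9% of all genes were higher and 1.38% lower with all 12 libraries, beside 14.9% and 14.2% with 11. Where that share is not printed, here or below, a change in the member counts cannot be told apart from a change over all genes.

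Leaving out 1 library at a time gave 12 to 16 members higher and 1 to 5 lower in vehicle, 0 to 1 higher and 10 to 11 lower for CsA in stimulated cells, 5 to 9 negative interactions, and 0 to 11 higher and 0 to 7 lower under CsA; the counts of 15, 5, 11 and 7 without CsA_PI 2 stand in the report. The replicate block gave 16 higher and 3 lower members in vehicle, 11 lower for CsA in stimulated cells and 9 negative interactions, and with 12 or 11 libraries it changed no member's call beyond those printed in the report. Members with few counts (Aldoc, Hk2, Pfkm) and those sharing sequence with copies (Gapdh, Eno1, Pgam1, Pgk1) are the least certain, and the CsA-stimulated group without CsA_PI 2 rests on 2 libraries.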
